A study of Mus musculus with 7 samples.

Results

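The unfolded protein and integrated stress genes are 10 of the 49492 genes in the count table, chosen by name: *Hspa5*, *Hsp90b1*, *Xbp1*, *Atf4*, *Atf5*, *Ddit3*, *Trib3*, *Chac1*, *Asns* and *Herpud1*. All 10 had counts in every library and passed the filter on low counts, which 16091 genes passed. They were read by bulk RNA-seq of mouse glioblastoma (GBM) in C57BL/6 mice labelled as 3 months old, in 2 genetic models with 4 NPCTKO and 3 NSCHRas-shp53 samples. NPCTKO tumors arose from neural progenitor cells of the embryonic neocortex, electroporated in utero with Cas9, guide RNAs against tumor suppressor genes, *Trp53* and *Nf1* among them, and a piggyBac cassette that marks the descendants of the electroporated cells with EGFP or DsRed. Papain was used to dissociate these tumors, and RNA was extracted from cells that FACS had gated on EGFP or DsRed. NSCHRas-shp53 tumors arose after a lentivirus carrying constitutively active human HRAS and a short hairpin RNA against *Trp53* was delivered to the ventricular-subventricular zone of adult mice by injection, and their RNA came from whole tumor tissue that was not sorted. Loss of *Trp53* function was thus intended in both models, neither had a normal tissue control here, and the model and the preparation cannot be told apart.

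Proteins that are to be secreted or inserted into membranes fold in the endoplasmic reticulum (ER), and unfolded proteins there are sensed by IRE1 (*Ern1*), PERK (*Eif2ak3*) and ATF6 (*Atf6*), which start the unfolded protein response. IRE1 splices the mRNA of *Xbp1*, cleaved ATF6 enters the nucleus, and both resulting factors raise ER chaperones and the machinery that removes misfolded proteins. PERK phosphorylates the translation factor eIF2, as do GCN2, PKR and HRI in response to amino acid shortage, double-stranded RNA and heme shortage. This integrated stress response lowers protein synthesis while the mRNA of *Atf4* is translated more, and ATF4 in turn induces amino acid synthesis, transport and the factor CHOP (*Ddit3*). RNA levels therefore report on the targets of these pathways, whereas the splicing of *Xbp1* and the translation of *Atf4* were not read here.

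The response is known to act through short motifs in promoters. Of the promoters of these genes, 5 are shown because they hold the longer motifs searched for. The RefSeq sequences of build GRCm38.p6 covered 10 of 10 genes with 11 promoters, *Atf5* having 2, and the 250 bases before each RefSeq start were searched on both strands. The motifs were the ER stress response element ERSE (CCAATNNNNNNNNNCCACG), ERSE-II (ATTGG and CCACG with 1 base of any kind between), the core of the unfolded protein response element UPRE (TGACGTG) and the core of the CEBP-ATF response element CARE (TGATGNAA), with matches in capitals. ERSE and ERSE-II contain CCACG, so their matches overlap with those of CCACG alone. The windows are chr2:34771840-34772089, plus strand, chr10:86705445-86705694, minus strand, chr8:94386179-94386428, plus strand, chr2:119350992-119351241, plus strand, and chr6:7693210-7693459, minus strand.
*Hspa5*: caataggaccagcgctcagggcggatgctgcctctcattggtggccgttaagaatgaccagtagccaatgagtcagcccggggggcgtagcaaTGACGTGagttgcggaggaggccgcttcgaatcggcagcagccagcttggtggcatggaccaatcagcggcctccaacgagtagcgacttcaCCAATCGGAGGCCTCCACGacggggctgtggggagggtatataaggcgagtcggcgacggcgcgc
*Hsp90b1*: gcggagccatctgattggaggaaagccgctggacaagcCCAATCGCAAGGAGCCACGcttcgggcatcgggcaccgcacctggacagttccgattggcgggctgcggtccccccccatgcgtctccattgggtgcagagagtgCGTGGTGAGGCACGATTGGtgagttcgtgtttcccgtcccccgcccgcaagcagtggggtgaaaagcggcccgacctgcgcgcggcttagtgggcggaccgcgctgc
*Herpud1*: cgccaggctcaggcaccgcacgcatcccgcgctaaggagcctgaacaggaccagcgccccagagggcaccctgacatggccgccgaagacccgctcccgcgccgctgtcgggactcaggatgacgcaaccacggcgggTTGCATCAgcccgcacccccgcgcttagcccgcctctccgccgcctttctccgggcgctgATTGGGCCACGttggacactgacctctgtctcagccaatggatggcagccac
*Chac1*: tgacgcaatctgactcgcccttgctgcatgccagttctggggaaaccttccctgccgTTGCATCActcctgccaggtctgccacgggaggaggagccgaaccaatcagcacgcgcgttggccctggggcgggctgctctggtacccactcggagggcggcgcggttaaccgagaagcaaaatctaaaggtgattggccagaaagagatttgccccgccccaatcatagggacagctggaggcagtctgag
*Asns*: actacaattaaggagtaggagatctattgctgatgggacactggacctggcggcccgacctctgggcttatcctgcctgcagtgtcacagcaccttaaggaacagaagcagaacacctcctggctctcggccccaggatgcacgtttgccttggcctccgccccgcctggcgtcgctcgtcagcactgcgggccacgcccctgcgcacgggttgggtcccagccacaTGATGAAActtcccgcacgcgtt

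*Hspa5* held an ERSE 65 to 47 bases before its start and a UPRE core further upstream, and *Hsp90b1* held 2 ERSEs, of which one lies on the opposite strand. ERSE was found in 2 of the 11 promoters and in 0.113% of all 32851 promoters of the same length. *Herpud1* held the ERSE-II, found in 0.0304% of all promoters, and a CARE core. *Chac1* and *Asns* held a CARE core too, which 3.45% of all promoters hold, and the UPRE core was found in 1.65%. CCACG alone was found in 7 of the 11 promoters against 28.3% of all. No match for the 4 longer motifs was found in these windows of *Xbp1*, *Atf4*, *Atf5*, *Ddit3* and *Trib3*, which says only that these letters are not in the 250 bases searched. These matches are a description of the letters and were not tested as binding sites.

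The libraries held between 15002873 and 19840860 counts, and levels are given as CPM, each count divided by the library's total, scaled by TMM, and set to the same large total for all libraries. NPCTKO samples 1 and 2 stand apart from NPCTKO samples 3 and 4: the correlation of log2 CPM over genes was 0.98 between samples 1 and 2 and 0.946 between samples 3 and 4, but between 0.818 and 0.88 across these pairs. Samples 1 and 2 read GC-rich transcripts more strongly, with a Spearman correlation between a gene's deviation and its transcript GC content of 0.608 and 0.522, against -0.401 and -0.416 in samples 4 and 3 and between -0.305 and -0.187 in NSCHRas-shp53. Markers of tumor-associated macrophages and microglia (TAM, 20 genes, *P2ry12* listed at 0) summed to 24662, 31462, 718 and 4824 CPM in NPCTKO samples 1 to 4 and to between 3925 and 10823 in NSCHRas-shp53, and B and plasma cell markers (15 genes, *Ms4a1* and *Igkc* listed at 0) to 1956, 774, 78.5 and 69.8 against between 148 and 279. *Sdc1* alone was at 142.2, 78.2, 52.2 and 33.4 CPM in NPCTKO against 173.5, 119.9 and 249.8 in NSCHRas-shp53. *Mzb1* was at 163.9, 110.2, 1.56 and 0.362 CPM against 0.873, 1.11 and 0.604. *Ighm* was at 118.2, 86.02, 2.5 and 4.83 CPM against 25.4, 10.1 and 12.1. The sums therefore do not rank NSCHRas-shp53 against NPCTKO samples 3 and 4 for these cells. Astrocyte markers ran from 241 to 729 CPM in NPCTKO against 2917 to 3865, neuron markers from 120 to 609 against 856 to 1794, mural cell and fibroblast markers from 65.6 to 139 against 510 to 1053, and oligodendrocyte precursor cell (OPC) markers from 2771 to 6291 against 571 to 1043. Listed at 0 counts, and so adding nothing to these sums, were *Gfap* of the astrocyte, *Nefl* of the neuron and *Gpr17* of the OPC markers. In bulk samples, fewer cells of a type and less RNA per cell cannot be told apart. RNA of *Trp53* and *Nf1* was read in every library, *Trp53* at 91.8 to 200.4 CPM in NPCTKO and 54.8 to 82.2 in NSCHRas-shp53 and *Nf1* at 41.6 to 230 in NPCTKO.

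The 10 genes were lower in NSCHRas-shp53 in their mean CPM, every one of them, but only 2 passed the test across all genes. *Ddit3* fell by 0.97 and *Asns* by 1.199 on the log2 scale (edgeR quasi-likelihood test, Benjamini-Hochberg adjusted p = 0.0443 and 0.0458). The other 8 had log2 fold changes, NSCHRas-shp53 minus NPCTKO, between -2.0 and -0.34 and adjusted p between 0.10 and 0.532. The background share of genes called lower by this test is 5.28%, and 54.1% of the 16091 genes had a negative log2 fold change. In 5 of the 10 genes, *Hspa5*, *Atf4*, *Ddit3*, *Trib3* and *Asns*, each NSCHRas-shp53 sample was below every NPCTKO sample, against 14.9% of all genes tested. The median log2 fold change was -0.945 over the 10 genes and -0.10 over all genes tested. No member was called higher, and none was higher at an unadjusted p under 0.05 in edgeR or DESeq2.

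**Figure D1:**
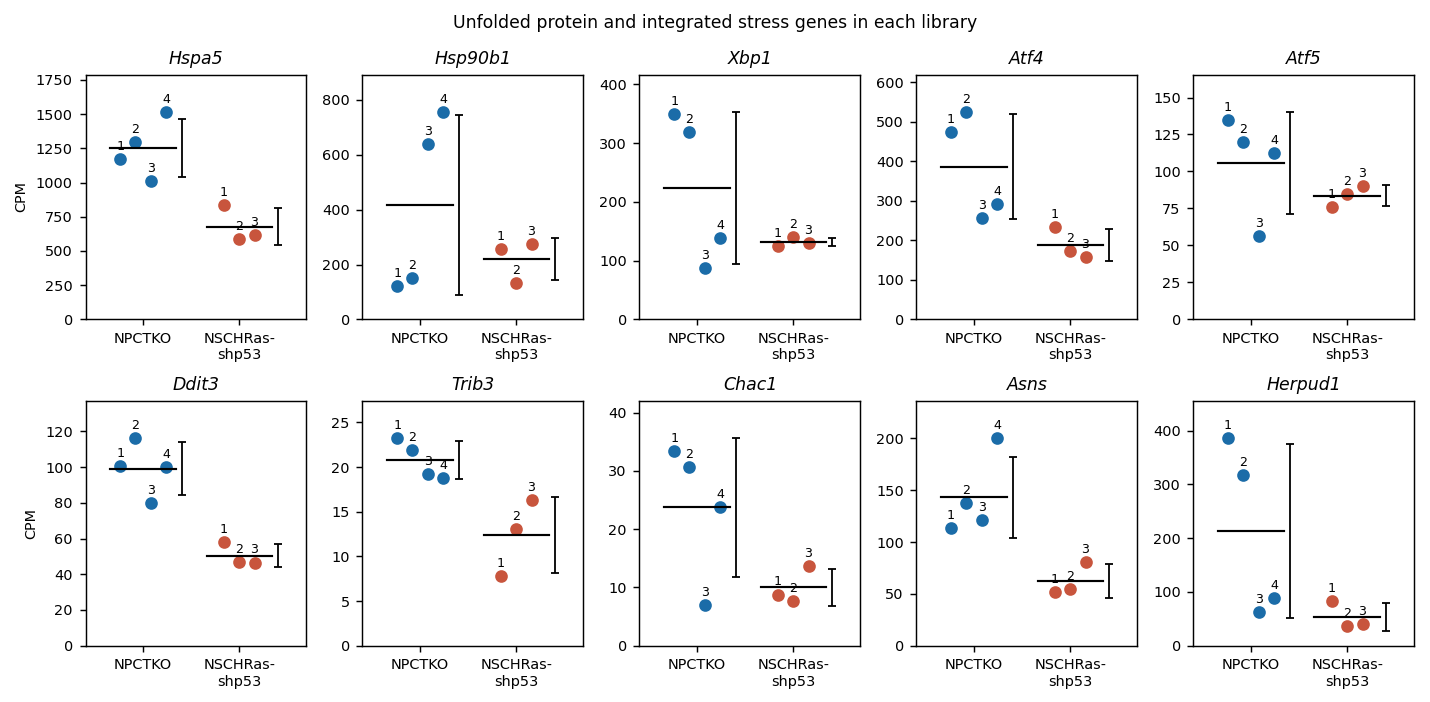
CPM of the 10 genes, on a linear axis from 0, in 4 NPCTKO and 3 NSCHRas-shp53 libraries, where each point is a library with its sample number, the horizontal line is the mean and the bar beside it is the SD. *Hspa5*, *Atf4*, *Ddit3*, *Trib3* and *Asns* do not overlap between the models, while NPCTKO samples 1 and 2 lie far from samples 3 and 4 for *Hsp90b1*, *Xbp1* and *Herpud1*.

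*Hspa5* encodes BiP, the main Hsp70 chaperone of the ER, which also holds the sensors inactive until unfolded proteins draw it away. It spans chromosome 2 from 34771970 to 34777547 on the plus strand (mm10), and was read at 1175, 1300, 1014 and 1516 CPM in NPCTKO samples 1 to 4 and at 835, 586 and 615 CPM in NSCHRas-shp53 samples 1 to 3. The lowest NPCTKO sample was above the highest NSCHRas-shp53 sample. Means were 1251 ± 212 CPM (SD, n = 4) and 678 ± 137 CPM (SD, n = 3), a 1.84-fold difference, with a log2 fold change of -0.88, a standard error of 0.36 and an edgeR adjusted p of 0.141. With offsets for the trends with GC content and length of transcripts it was -1.09, with an edgeR adjusted p of 0.0337, and *Hspa5* was then called lower. In CPM, NPCTKO samples 1 and 2 lie within the span of samples 3 and 4 for this gene. With the GC and length trends removed, the log2 values in NPCTKO were 10.53, 10.61, 9.89 and 10.39. Samples 1 and 2 were then above samples 3 and 4, and the SD within NPCTKO rose from 0.24 to 0.32.

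*Hsp90b1*, the ER member of the Hsp90 family (GRP94), folds integrins and Toll-like receptors and shares the unfolded protein response with *Hspa5*. It spans chromosome 10 from 86690209 to 86705509 on the minus strand, and was read at 120, 150, 639 and 756 CPM in NPCTKO and at 256, 133 and 273 CPM in NSCHRas-shp53. NPCTKO samples 1 and 2 were low and samples 3 and 4 high, on either side of NSCHRas-shp53 samples 1 and 3, so the models overlapped. The highest NPCTKO sample was 6.28-fold above the lowest, against 1.496-fold for *Hspa5*. In CPM the ratio of *Hspa5* to *Hsp90b1* was 9.76, 8.65, 1.59 and 2.00 in NPCTKO and 3.26, 4.41 and 2.25 in NSCHRas-shp53. In FPKM, the deposited values normalised for transcript length and depth, this ratio was 3.54, 3.46, 0.851 and 1.05 in NPCTKO and 1.76, 1.21 and 1.13 in NSCHRas-shp53, so that NPCTKO samples 1 and 2 had the highest ratios on both scales.

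Several measured facts stand beside the values of *Hsp90b1*. Its longest transcript has 42.1% GC, the lowest of the 10 genes, and the same samples 1 and 2 read GC-rich transcripts more strongly. After the trends with GC content and length were removed, its log2 CPM was 7.64, 7.78, 9.07 and 9.26 in NPCTKO and 7.81, 6.77 and 7.85 in NSCHRas-shp53, which narrowed the SD within NPCTKO from 1.38 to 0.85 and left samples 3 and 4 above the other 5 libraries. Other genes lie over 60.8% of its exon bases, of which *1810014B01Rik*, on the opposite strand, was read at 1.77 to 3.74 CPM, and the libraries were not strand-specific. The log2 fold change was -0.92 (SE 0.70, edgeR adjusted p = 0.412) over all libraries, -1.63 without NPCTKO samples 1 and 2 (edgeR adjusted p = 0.0306) and 0.69 without samples 3 and 4, so its direction depends on which NPCTKO samples enter.

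*Xbp1*, the factor whose mRNA IRE1 splices and which plasma cells need for antibody secretion, spans chromosome 11 from 5520659 to 5525893 on the plus strand. It was read at 349, 318, 88.0 and 138 CPM in NPCTKO and at 125, 140 and 130 CPM in NSCHRas-shp53. NPCTKO samples 1 and 2 were above all other libraries, sample 3 was the lowest library, and the NSCHRas-shp53 samples lay close together within that range. The log2 fold change was -0.77 (SE 0.49, edgeR adjusted p = 0.332), but 0.25 without NPCTKO samples 1 and 2, so its direction depended on which NPCTKO samples entered. The TAM and the B and plasma cell markers were also highest in NPCTKO samples 1 and 2, with *C1qa*, a complement gene of TAM, at 6872, 8353, 133 and 946 CPM and *Jchain*, of antibody-secreting cells, at 1344, 346, 9.20 and 0.664 CPM in NPCTKO samples 1 to 4, and their part in the level of *Xbp1* was not tested. After the GC and length trends were removed, the SD within NPCTKO fell from 0.96 to 0.42 on the log2 scale.

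*Atf4*, the factor that carries the integrated stress response, spans chromosome 15 from 80255184 to 80257540 on the plus strand. It was read at 473, 525, 257 and 291 CPM in NPCTKO and at 233, 172 and 158 CPM in NSCHRas-shp53. NPCTKO samples 1 and 2 were highest, and all NPCTKO samples lay above all NSCHRas-shp53 samples. Means of 387 ± 132 (SD, n = 4) and 188 ± 40.2 CPM (SD, n = 3) differed 2.06-fold, with a log2 fold change of -1.04, a standard error of 0.37 and an edgeR adjusted p of 0.102. It was -0.51 without NPCTKO samples 1 and 2 and -0.70 with offsets for GC content and length, where the NPCTKO samples stayed above the NSCHRas-shp53 samples with log2 values of 8.14, 8.37, 8.64 and 8.46 against 7.94, 7.58 and 7.59.

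*Atf5*, a related factor whose translation is also controlled through eIF2 and which drives the mitochondrial stress response, spans chromosome 7 from 44812256 to 44816658 on the minus strand. It was read at 135, 120, 56.3 and 113 CPM in NPCTKO and at 75.9, 84.5 and 90.4 CPM in NSCHRas-shp53. NPCTKO sample 3 was below every NSCHRas-shp53 sample and the other NPCTKO samples were above them. This was the smallest difference among the 10 genes, with a log2 fold change of -0.34 (SE 0.34, edgeR adjusted p = 0.532) and a 95% interval from -1.11 to 0.43. It was 0.02 without NPCTKO samples 1 and 2. *Nup62* and *Il4i1* on the other strand cover 12.9% of its exon bases, of which *Nup62* was listed at 0 counts.

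*Ddit3* encodes CHOP, the factor that ATF4 induces and that links prolonged ER stress to cell death. It spans chromosome 10 from 127290774 to 127296288 on the plus strand, and was read at 101, 116, 79.7 and 100.0 CPM in NPCTKO and at 57.9, 46.8 and 46.6 CPM in NSCHRas-shp53. The models did not overlap, and the means of 99.1 ± 15.0 (SD, n = 4) and 50.4 ± 6.45 CPM (SD, n = 3) differed 1.96-fold. The log2 fold change was -0.97 (SE 0.26, 95% interval from -1.57 to -0.38, edgeR adjusted p = 0.0443). This call was lost when any of NPCTKO samples 1, 2 and 4 or NSCHRas-shp53 samples 1 to 3 was left out, where the edgeR adjusted p reached 0.189, and held without NPCTKO sample 3 (adjusted p = 0.0316). Without NPCTKO samples 1 and 2 together, the log2 fold change was -0.80 and the edgeR adjusted p was 0.0543. The SD within NPCTKO was 0.23 on the log2 scale, smaller than in all but 7.73% of the genes tested, and samples 1 and 2 were above samples 3 and 4. The end of *Mars*, a tRNA synthetase gene on the opposite strand, overlaps it, and other genes cover 4.85% of its exon bases.

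*Trib3*, a pseudokinase that ATF4 and CHOP induce and that binds both AKT and ATF4, spans chromosome 2 from 152337422 to 152344032 on the minus strand. It was read at 23.2, 22.0, 19.2 and 18.8 CPM in NPCTKO and at 7.80, 13.1 and 16.3 CPM in NSCHRas-shp53. All NPCTKO samples were above all NSCHRas-shp53 samples, and the spread was wider among the latter. The log2 fold change was -0.75 (SE 0.35, edgeR adjusted p = 0.188). With the GC and length trends removed the models overlapped, with log2 values of 3.75, 3.74, 4.99 and 4.61 against 3.01, 3.82 and 4.29. *Trib3* was not called under any of the 18 alternative fits.

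*Chac1*, a glutathione-degrading enzyme that ATF4 induces together with CHOP, spans chromosome 2 from 119351229 to 119354381 on the plus strand. It was read at 33.4, 30.8, 7.02 and 23.8 CPM in NPCTKO and at 8.78, 7.70 and 13.6 CPM in NSCHRas-shp53. NPCTKO sample 3 was the lowest of the 7 libraries, and NPCTKO samples 1, 2 and 4 were the highest. The log2 fold change was -1.24 (SE 0.54, edgeR adjusted p = 0.164), and without NPCTKO sample 3 *Chac1* was called lower (edgeR adjusted p = 0.0288). It was -0.58 without NPCTKO samples 1 and 2 (edgeR adjusted p = 0.484) and -0.80 with GC and length offsets (edgeR adjusted p = 0.201).

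*Asns*, asparagine synthetase, is a classical target of ATF4 during amino acid shortage. It spans chromosome 6 from 7675169 to 7693254 on the minus strand, and was read at 113, 137, 122 and 200.3 CPM in NPCTKO and at 51.7, 54.4 and 81.0 CPM in NSCHRas-shp53. NPCTKO sample 4 was the highest library, and the models did not overlap. Means of 143 ± 39.4 (SD, n = 4) and 62.4 ± 16.2 CPM (SD, n = 3) differed 2.30-fold, with a log2 fold change of -1.199 (SE 0.33, 95% interval from -1.94 to -0.46, edgeR adjusted p = 0.0458). The call was lost when any 1 library other than NPCTKO sample 3 was left out, up to an edgeR adjusted p of 0.178, but held without NPCTKO samples 1 and 2 together (log2 fold change -1.33, edgeR adjusted p = 0.0336). *Asns* had no overlapping gene, and the log2 fold change was between -1.42 and -0.99 under all 18 alternative fits.

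*Herpud1*, a membrane protein that gathers the ER-associated degradation machinery, spans chromosome 8 from 94386438 to 94395377 on the plus strand. It was read at 386, 318, 62.7 and 88.4 CPM in NPCTKO and at 84.0, 35.96 and 40.4 CPM in NSCHRas-shp53. NPCTKO samples 1 and 2 were far above the other libraries, of which the highest was at 88.4 CPM, and NPCTKO sample 3 was below NSCHRas-shp53 sample 1. The log2 fold change of -2.0 was the largest of the 10 in size, with a standard error of 0.71 and an edgeR adjusted p of 0.10. It was -0.47 without NPCTKO samples 1 and 2 (edgeR adjusted p = 0.448) and -2.73 without samples 3 and 4. With the GC and length trends removed the log2 values were 8.01, 7.75, 6.50 and 6.66 in NPCTKO and 6.45, 5.30 and 5.58 in NSCHRas-shp53, and the models no longer overlapped. The TAM markers, the B and plasma cell markers and the immediate early genes were also highest in NPCTKO samples 1 and 2, and their part in the level of *Herpud1* was not tested.

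**Figure D2:**
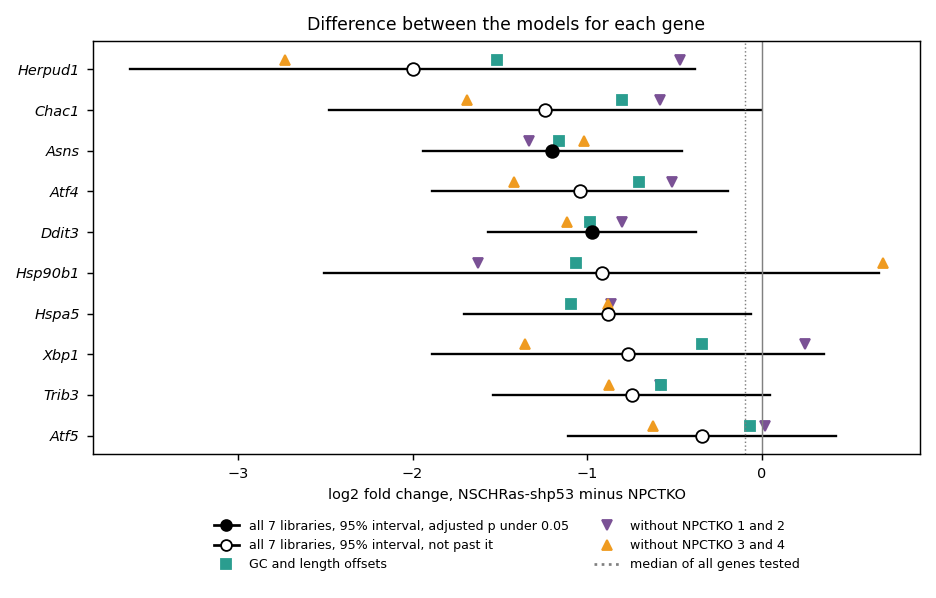
Log2 fold change of each gene, NSCHRas-shp53 minus NPCTKO, on the x axis, with the 95% interval from edgeR over 7 libraries as a line, a filled circle for an adjusted p under 0.05 and other marks for the fit with GC and length offsets and for the fits without NPCTKO samples 1 and 2 or 3 and 4. The values of *Hspa5*, *Trib3*, *Asns* and *Ddit3* stay close under all 4 fits, with *Asns* between -1.33 and -1.02, while *Herpud1* runs from -2.73 to -0.47 and *Hsp90b1* from -1.63 to 0.69.

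The same comparison was run with other tools and values. DESeq2 called 5 of the 10 genes lower, *Hspa5*, *Atf4*, *Ddit3*, *Asns* and *Herpud1*, at a background share of 12%. Limma on log2(FPKM + 0.1) called *Ddit3* and *Asns* (background 6.80%), and edgeR with offsets for GC content and length called *Hspa5*, *Ddit3* and *Asns* (background 10%). Without NPCTKO samples 1 and 2 the calls were *Hsp90b1* and *Asns* (background 7.40%), and without samples 3 and 4 they were 8 of the 10, all but *Hsp90b1* and *Trib3* (background 26.0%). *Asns* was thus the only member called in each of these 5 fits.

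The count of genes without overlap between the models was also repeated, with alternatives chosen after the data were seen. In FPKM the same 5 genes were below with no overlap (background 17.0%). After the GC and length trends were removed the 5 were *Hspa5*, *Atf4*, *Ddit3*, *Asns* and *Herpud1* (background 19.0%). Without NPCTKO samples 1 and 2 there were 6 (background 28.3%), and without samples 3 and 4 there were 9 (background 36.2%). *Hspa5*, *Atf4*, *Ddit3* and *Asns* were without overlap both in FPKM and after the GC and length trends were removed. Leaving NPCTKO samples out cannot bring an overlap to a gene that has none, so those repeats are no check on these genes.

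**Figure D3:**
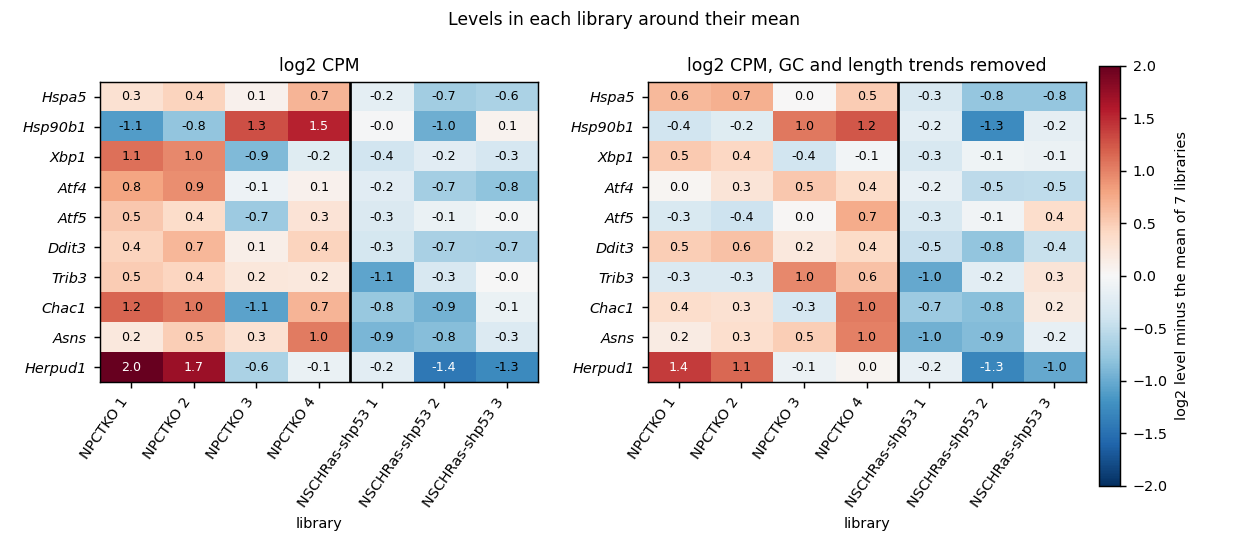
Log2 CPM of each gene in each of 7 libraries minus the gene's mean over the libraries, as colours and numbers, before (left) and after (right) the trends with GC content and length of transcripts were removed. On the left *Herpud1* and *Xbp1* are high and *Hsp90b1* is low in NPCTKO samples 1 and 2, and on the right these contrasts are smaller, with SDs within NPCTKO of 0.76, 0.42 and 0.85 in place of 1.31, 0.96 and 1.38.

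The genes differed in how much they varied within a model. The SD of log2 CPM within NPCTKO ran from 0.15 for *Trib3* and 0.23 for *Ddit3* to 1.31 for *Herpud1* and 1.38 for *Hsp90b1*, beside a median of 0.72 over all genes tested. Within NSCHRas-shp53 it ran from 0.08 for *Xbp1* to 0.66 for *Herpud1*, beside a median of 0.34. *Xbp1* thus had a highest sample 3.97-fold above the lowest within NPCTKO and 1.12-fold within NSCHRas-shp53. With the GC and length trends removed, the SD within NPCTKO rose from 0.15 to 0.63 for *Trib3* and from 0.24 to 0.32 for *Hspa5*. It stayed at 0.37 for *Asns* and fell for the other genes. The lowest was then 0.16, for *Ddit3*, beside a median of 0.55 over all genes tested.

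Levels of different genes were compared per length, in FPKM, where the means of the chaperones were the highest. *Hspa5* had a mean of 552 FPKM in NPCTKO and 286 in NSCHRas-shp53, *Hsp90b1* had 369 and 214, and *Atf4* had 228 and 123. In NPCTKO *Herpud1* (128), *Ddit3* (102), *Xbp1* (89.3), *Asns* (75.4) and *Atf5* (57.6) followed, and the samples of each neighbouring pair from *Hspa5* down to *Atf5* overlapped. *Chac1* (14.9) and *Trib3* (9.06) were below all of these in every NPCTKO sample and overlapped with each other. In NSCHRas-shp53 *Hspa5*, *Hsp90b1* and *Atf4* did not overlap, *Xbp1* (58.4), *Atf5* (55.4) and *Ddit3* (53.8) overlapped with each other, *Asns* (32.9) overlapped with *Herpud1* (31.8), and *Chac1* (7.11) overlapped with *Trib3* (5.84). *Herpud1* stood 4th in NPCTKO and 8th in NSCHRas-shp53. The order of the means did not hold in each NPCTKO sample: in samples 1 and 2 *Hsp90b1* (151 and 162 FPKM) was below *Atf4* (269 and 294) and *Herpud1* (232 and 184), and in sample 3 it was above *Hspa5* (532 against 452). With CPM per kilobase of gene span in place of FPKM, the order had a Spearman correlation of 0.733 with the one given. The deposited FPKM sums differed between libraries, from 419433 to 972436.

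Among 10866 other genes with a mean of at least 10 CPM, the 5 with the pattern over the 7 libraries most like *Hspa5* were *Psat1* (Pearson r = 0.996 on log2(CPM + 1)), *Nolc1* (0.983), *Epb41* (0.982), *Slc25a33* (0.979) and *Lrch1* (0.976). *Psat1*, an enzyme of serine synthesis, was read at 325, 364, 290 and 439 CPM in NPCTKO and at 206, 151 and 154 CPM in NSCHRas-shp53, which puts the 7 libraries in the same order as *Hspa5* does. For *Ddit3* they were *Rcl1* (0.995), *Kank1* (0.992), *Stip1* (0.992), *Pou3f1* (0.992) and *Ung* (0.991). At least 0.95 was reached by 27 genes for *Hspa5* and by 177 genes for *Ddit3*. The 7 libraries come from 2 models, so that these correlations hold the difference between the models as well as the spread within them.

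The other genes of the pathways were taken from 9 lists by role, with 209 genes tested. Of these 22 were called lower and 4 higher in NSCHRas-shp53 by edgeR, beside backgrounds of 5.28% and 7.77%, and 59 of them (28.2%) were lower with no overlap between the models beside a background of 14.9%. In the single lists, between 0 and 5 genes were higher with no overlap. The share of all genes higher with no overlap was not worked out, so these counts have no background beside them. The median log2 fold change of the 209 genes was -0.48. The 3 called genes with the smallest p of each list are described, and a gene named beyond these was chosen after its values were seen. Of the 20 genes that this rule named, *Creld2*, *Derl3* and *Tnfrsf10b* kept their call under every alternative fit that could be made. *Sdf2l1* and *Manf* lost it under 2, *Farsa* under 3, *Shmt2* and *Aldh18a1* under 4, *Yars* and *Slc7a3* under 5, and *Wfs1*, *Mars* and *Bcl2* under 7 of the 16 or 18 fits made for each. *Sec61a1* and *Ppp1r15b* lost it under 8, *Syvn1*, *Eif2b1* and *Lonp1* under 9, and *Rpn1* and *Nploc4* under 10, and none changed direction.

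**Figure D4:**
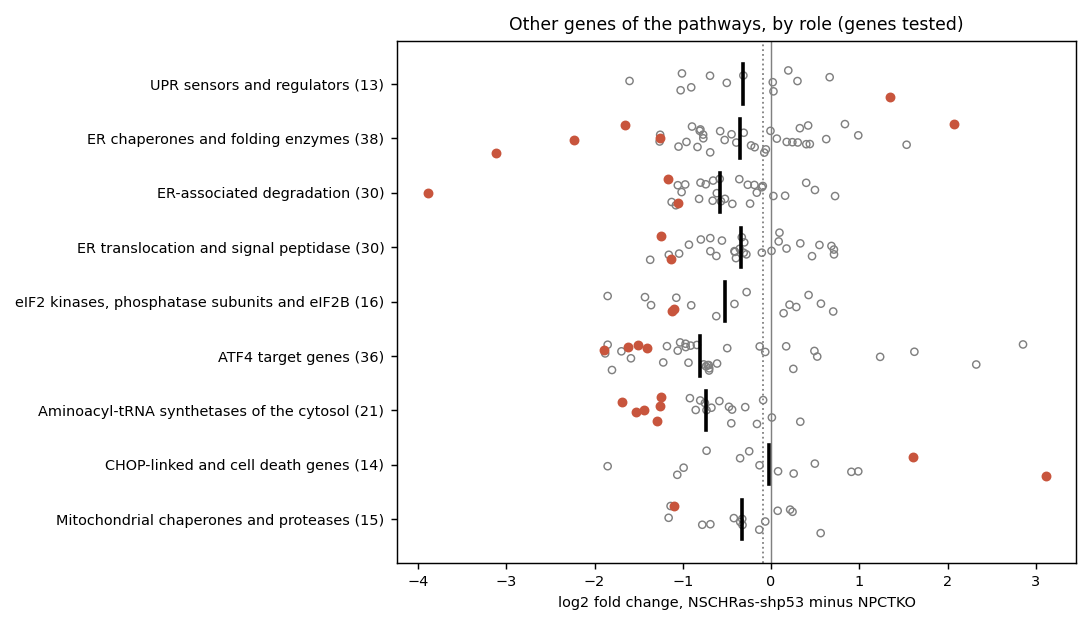
Log2 fold change, NSCHRas-shp53 minus NPCTKO, of each gene tested in the 9 lists by role, with the number tested in brackets, where filled points passed an adjusted p under 0.05, black bars are the medians of the lists and the dotted line is the median of all genes tested. The medians run from -0.80 for ATF4 target genes to -0.03 for CHOP-linked genes, and 22 genes across the lists were called lower.

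The sensors were not called. *Ern1* was read at between 41.4 and 87.01 CPM over the 7 libraries (log2 fold change 0.02), *Atf6* at between 33.4 and 78.3 CPM (-0.31) and *Eif2ak3* at between 31.1 and 94.6 CPM (-0.91, edgeR adjusted p = 0.103). The other eIF2 kinases, *Eif2ak1* (35.0 to 56.3 CPM), *Eif2ak2* (14.6 to 93.4 CPM) and *Eif2ak4* (32.5 to 55.3 CPM), had log2 fold changes of -0.28, 0.70 and 0.29 and were not called. Of 13 sensors and regulators tested, 1 was called higher and 0 lower by edgeR, beside backgrounds of 7.77% and 5.28%. The share called higher is thus near that of all genes. The gene called was *Wfs1*, an ER membrane protein that restrains ATF6, at 19.1 to 26.9 CPM in NPCTKO and 39.8 to 66.3 CPM in NSCHRas-shp53. At an unadjusted p under 0.05, 3 were lower and 1 higher. DESeq2 called 3 lower and 1 higher, and its background for lower calls is given above. *Tmbim6*, which restrains IRE1, ran from 442 to 1788 CPM within NPCTKO and from 691 to 761 CPM within NSCHRas-shp53. With no overlap 2 of the 13 (15.4%) were lower, which is near the background of 14.9%, and 1 was higher. *Mbtps1*, which cleaves ATF6, was below every NPCTKO sample in each NSCHRas-shp53 sample with a log2 fold change of -0.69 and an edgeR adjusted p of 0.118. *Atf6b* was the other, at 85.3 to 315 CPM in NPCTKO and 60.0 to 77.5 CPM in NSCHRas-shp53, and was not called (-1.60, SE 0.49, edgeR adjusted p = 0.0678).

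Of 38 other ER chaperones and folding enzymes, 4 (10.5%) were called lower and 1 higher, beside backgrounds of 5.28% and 7.77%. With no overlap 13 (34.2%) were lower, beside a background of 14.9%, and 5 were higher, for which no background was worked out. *Creld2*, an ER protein induced by ER stress, was read at 193, 236, 143 and 206 CPM in NPCTKO and at 48.5, 42.3 and 32.9 CPM in NSCHRas-shp53 (log2 fold change -2.24, SE 0.31, edgeR adjusted p = 0.00581). *Manf*, a secreted protein that binds BiP, was read at 259, 285, 222 and 262 CPM against 91.7, 92.1 and 61.7 CPM (-1.65, SE 0.29). *Sdf2l1*, a partner of BiP and its J proteins, was read at 248, 276, 394 and 82.4 CPM against 42.8, 21.1 and 22.4 CPM (-3.12, SE 0.58). The log2 fold changes of *Creld2* and *Sdf2l1* were larger in size than that of any of the 10 genes. *Hyou1*, the large Hsp70-like partner of BiP, was also called lower (-1.26), and *Fkbp10*, a collagen-folding isomerase, was called higher (2.07). *Calr*, calreticulin, was read at 1290 to 2327 CPM in NPCTKO and 732 to 834 CPM in NSCHRas-shp53, with an edgeR adjusted p of 0.0690.

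Of 30 other genes of ER-associated degradation, 3 were called lower by edgeR (10%) and 4 by DESeq2, whose background is 12%, and the median log2 fold change was -0.575. With no overlap 5 were lower, a share of 16.7% that is near the background of 14.9%. *Derl3*, a derlin of the retrotranslocation machinery, was read at 38.6, 25.5, 8.42 and 21.4 CPM in NPCTKO and at 1.53, 1.52 and 1.68 CPM in NSCHRas-shp53 (-3.89, SE 0.57, edgeR adjusted p = 0.00695). *Syvn1*, the ubiquitin ligase HRD1, was read at 101 to 156 CPM against 55.4 to 68.7 CPM (-1.17), and *Nploc4*, which recruits the extracting ATPase, at 166 to 239 CPM against 77.0 to 107 CPM (-1.06). *Derl3* is also one of the B and plasma cell markers, which summed to 1956, 774, 78.5 and 69.8 CPM in NPCTKO. The part of these cells in the level of *Derl3* was not tested. Of 30 genes of ER translocation, *Sec61a1*, the channel subunit (288 to 381 CPM against 109 to 166 CPM, -1.24), and *Rpn1*, of the oligosaccharyl transferase (332 to 435 CPM against 157 to 186 CPM, -1.14), were called lower, a share of 6.67% beside the background of 5.28%.

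In the integrated stress response, 2 of 16 genes around eIF2 (12.5%) were called lower and 0 higher by edgeR, beside backgrounds of 5.28% and 7.77%. With no overlap 4 (25%) were lower, beside a background of 14.9%, and 0 were higher. *Eif2b1*, a subunit of the exchange factor eIF2B, was read at 42.4 to 54.97 CPM in NPCTKO and 21.7 to 26.1 CPM in NSCHRas-shp53 (-1.10). *Ppp1r15b*, the constitutive subunit of the eIF2 phosphatase, was read at 158 to 266 CPM against 81.8 to 97.8 CPM (-1.13). *Ppp1r15a* (GADD34), its inducible counterpart and a target of ATF4 and CHOP, was read at 275, 446, 37.7 and 133 CPM against 137, 24.2 and 24.05 CPM and was not called (-1.85, SE 0.93, edgeR adjusted p = 0.218). Its samples overlapped, as did those of *Atf3*, another target of the pathway, at 635, 1222, 101 and 344 CPM against 422, 19.9 and 26.9 CPM.

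Of 36 other targets of ATF4, 4 (11.1%) were called lower and 0 higher by edgeR, beside backgrounds of 5.28% and 7.77%. With no overlap 13 (36.1%) were lower, beside a background of 14.9%, and 3 were higher, for which no background was worked out. The median log2 fold change was -0.80. *Aldh18a1*, of proline synthesis, was read at 150 to 209 CPM in NPCTKO and 54.2 to 68.1 CPM in NSCHRas-shp53 (-1.51, SE 0.27). *Shmt2*, of mitochondrial serine and folate metabolism, was read at 147 to 302 CPM against 71.5 to 80.7 CPM (-1.62, SE 0.33), and *Slc7a3*, a transporter of cationic amino acids, at 48.2 to 128 CPM against 16.9 to 25.7 CPM (-1.89, SE 0.42). *Phgdh*, the first enzyme of serine synthesis, was called lower too (-1.41), while *Psat1*, which follows it in serine synthesis, was not (-1.06, edgeR adjusted p = 0.0535). At an unadjusted p under 0.05 edgeR had 13 of the list lower and 3 higher, and DESeq2 called 9 lower and 3 higher. *Slc7a11*, the cystine transporter, had higher values in every NSCHRas-shp53 sample, at 97.5 to 138 CPM against 13.03 to 73.3 CPM, and so did *Nupr1*, a stress-induced chromatin protein, at 168 to 548 CPM against 11.02 to 115 CPM, with edgeR adjusted p of 0.0801 and 0.0540.

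The aminoacyl-tRNA synthetases of the cytosol, many of which ATF4 induces, had the largest share called of the 9 lists. By edgeR 6 of 21 (28.6%) were called lower and 0 higher, beside backgrounds of 5.28% and 7.77%. At an unadjusted p under 0.05, 9 were lower and 0 higher. DESeq2 called 7 lower and 0 higher, and its background for lower calls is given above. With no overlap 9 (42.9%) were lower, beside a background of 14.9%, and 0 were higher. *Yars* was read at 226, 195, 185 and 192 CPM in NPCTKO and at 78.1, 72.2 and 94.4 CPM in NSCHRas-shp53 (-1.29, SE 0.26, edgeR adjusted p = 0.0180). *Farsa* was read at 186, 182, 94.8 and 97.3 CPM against 40.6, 48.0 and 41.6 CPM (-1.69), and *Mars*, the neighbour of *Ddit3*, at 196, 234, 145 and 183 CPM against 73.5, 76.3 and 88.0 CPM (-1.26). *Kars*, *Vars* and *Aars* were the others called. The summed CPM of the 21 genes was 3313 to 4183 in NPCTKO and 2004 to 2480 in NSCHRas-shp53, with no overlap.

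Of 14 genes linked to CHOP and cell death, 2 were called higher and 0 lower by edgeR and by DESeq2, and 4 were higher and 0 lower at an unadjusted p under 0.05. The share of all genes called higher is 7.77%, and 7 of the 14 had a negative log2 fold change, with a median of -0.03. *Tnfrsf10b*, the death receptor DR5, which CHOP is known to induce, was read at 3.02, 3.81, 3.12 and 9.05 CPM in NPCTKO and at 49.3, 49.7 and 24.3 CPM in NSCHRas-shp53 (3.11, SE 0.51, edgeR adjusted p = 0.00917). *Bcl2*, an inhibitor of apoptosis, which CHOP is known to repress, was read at 15.0, 10.8, 10.5 and 10.7 CPM against 27.5, 37.6 and 42.4 CPM (1.61, SE 0.31). Its log2 fold change was 1.14 with GC and length offsets and 0.89 in limma on log2(FPKM + 0.1), and the call was lost in both. *Ddit3* itself was lower in NSCHRas-shp53. Of 15 chaperones and proteases of mitochondria, *Lonp1*, the matrix protease, was called lower (146 to 201 CPM against 82.2 to 85.7 CPM, -1.10), a share of 6.67% beside the background of 5.28%.

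Other responses that dissociation or handling of tissue can move were read beside these genes. Summed immediate early genes were at 16711, 18793, 4213 and 7327 CPM in NPCTKO and at 8751, 2536 and 2038 CPM in NSCHRas-shp53, and 0 of 30 were called by edgeR in either direction, with 6 lower and 2 higher at an unadjusted p under 0.05 and 5 lower and 1 higher by DESeq2. Of 20 cytosolic heat shock genes, 2 (10%) were called lower and 0 higher by edgeR, beside backgrounds of 5.28% and 7.77%. They were *Hspa1a* and *Hspa1b*, at 12.1 to 61.7 CPM against 1.34 to 8.18 CPM and at 189 to 692 CPM against 11.9 to 74.4 CPM, and as near-identical copies they can share reads. DESeq2 called 7 lower and 1 higher. With no overlap 6 (30%) were lower, beside a background of 14.9%, and 1 was higher. The summed heat shock genes were at 5491 to 7906 CPM in NPCTKO and at 4373 to 4517 CPM in NSCHRas-shp53, with no overlap. The part of these responses, and of the cell types given above, in the levels of the 10 genes was not tested.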

How the data were processed

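RNA-seq of 4 NPCTKO and 3 NSCHRas-shp53 samples was analysed. Per the labels, libraries were poly(A)-selected and not strand-specific. The submitters' processing notes name cutadapt 1.16, TopHat2 2.1.1, Cufflinks 2.2.1 and the build mm10, and the methods of the study give another cutadapt version. The authors deposited raw read counts per gene and, in a second table, FPKM values, fragments normalised for transcript length and library depth. Which tool made the counts is not stated in any source used here. Of 11072 genes whose whole span another gene overlaps, 11066 had 0 counts, among them *Cnpy3*, *Erlec1*, *Eif2s2*, *Slc7a5*, *Bak1* and *Spg7* of the lists, which were left out.

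Counts were filtered (filterByExpr), scaled by TMM and tested with the edgeR 4.0.16 quasi-likelihood test in R 4.3.3 between the models over all 16091 genes, and a gene was called at a Benjamini-Hochberg adjusted p under 0.05. Alternatives were DESeq2 1.42.0, limma 3.58.1 on log2(FPKM + 0.1) or log2(FPKM + 1) for genes of at least 1 FPKM in 3 libraries, other scalings, no filter, smooth trends on transcript GC content and length as offsets (mgcv 1.9.3), a replicate block, and libraries left out. The test was tried on simulated counts first. Libraries of a group differed by more than sampling noise, with chi-square per degree of freedom of at least 62.5. Nothing in the labels says whether samples of a group came from separate animals, so p-values measure only the spread between these samples.

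The members and lists were chosen with earlier results of these data known. The genes named were the 10 members, the sensors and eIF2 kinases, the 3 called genes with the smallest edgeR p of each list, and the 5 genes most correlated with *Hspa5* and with *Ddit3*. Of the marker lists not described in the report, T cell genes had 1 of 14 called higher in NSCHRas-shp53, endothelial cell genes 5 of 14 and oligodendrocyte genes 1 of 12. Of those described, 1 of 19 TAM genes, 7 of 13 mural cell and fibroblast genes, 12 of 14 neuron genes and 7 of 11 astrocyte genes were called higher, and 1 of 11 B and plasma cell genes and 8 of 11 OPC genes lower. Over all genes tested, 7.77% were called higher and 5.28% lower. The B and plasma cell gene called lower was *Derl3*, which is also in the list of ER-associated degradation. An item withheld from this text is not reported here.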

Additional observations from a re-analysis of the deposited data

Results flagged for a closer look

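In NPCTKO, 1 of the 4 samples lay far from the others for 2 of the genes named, among 40 groups of values examined, of which chance would mark about 1 in 20. For *Tnfrsf10b*, sample 4 was at 9.05 CPM and the others at between 3.02 and 3.81 CPM, a gap of 0.869 of the whole range. For *Bcl2*, sample 1 was at 15.0 CPM and the others at between 10.5 and 10.8 CPM, a gap of 0.929 of the range. In both genes all 4 samples stayed below every NSCHRas-shp53 sample.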

How the results depend on the processing

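The number of the 10 genes called, 2 in edgeR, was 5 in DESeq2, 8 without NPCTKO samples 3 and 4, and 0 without TMM factors (4 at an unadjusted p under 0.05) or without the filter on low counts (6 unadjusted); leaving out 1 library gave 0 to 4, with calls only without NPCTKO sample 3. Over all genes, 2101 were called, against 3946 in DESeq2, 3223 with GC and length offsets, 8951 without NPCTKO samples 3 and 4, and 539 to 2595 with 1 library left out. Of the 209 pathway genes 26 were called, against 50, 44 and 133 in the same order, 17 without TMM factors, 17 without the filter, and 3 to 39 with 1 library left out. Lower with no overlap were 5 of the 10 genes, and 9 without NPCTKO samples 3 and 4, a count that leaving samples out can only keep or raise. Direction turned for *Hsp90b1* (0.69 without NPCTKO samples 3 and 4), *Xbp1* (0.25) and *Atf5* (0.021) without NPCTKO samples 1 and 2, and *Atf5* (0.22) with the replicate block and GC and length offsets. The median log2 fold change of all genes moved from -0.097 to 0.088 without TMM factors, where the 10 genes all stayed negative. The cause of these changes was not tested.

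Samples of the 2 models share replicate numbers 1 to 3, but the correlations of their deviations were 0.263, -0.190 and 0.180 for equal numbers, so the numbers were not taken as a pairing. The replicate block called 0 of the 10 genes (4 at an unadjusted p under 0.05), 8 pathway genes and 1041 of all genes, and with GC and length offsets it called 1 of the 10 and 14 pathway genes.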
